A study of Mus musculus with 12 samples.

Results

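The intercalated disc joins heart muscle cells end to end, and 10 genes for its junctions were followed in mouse hearts early after pressure overload. They were taken by symbol from a table of 13552 genes, and 10 of 10 were found and passed the filter on low values that left 11240 genes for testing. They are 3 connexins (Gja1, Gja5 and Gjc1), the adherens junction genes Cdh2 and Ctnna3, and the desmosome genes Dsp, Pkp2, Jup, Dsg2 and Dsc2. RNA was measured by sequencing of poly(A) RNA in hearts of 12 male mice (C57BL/6 in the labels, C57BL/6J in the study's methods) aged 8 to 10 weeks, 3 in each of 4 groups. Wild-type (WT) mice and knock-in (KI) mice, in which serine 14 of the anti-apoptotic protein Bcl-xL is replaced by alanine (S14A), had either transverse aortic constriction (TAC, a ligature that raises the load on the left ventricle) or sham surgery, and hearts were taken 9 h later. The exchange is in the germline and so in every cell type. The neo cassette was removed by a cross to CMV-Cre mice, and the WT males were purchased. The labels do not give the zygosity of the KI mice, and the study describes the KI mice of its later experiments as homozygous. The comparisons ask how the junction genes respond to pressure overload, and whether a heart that cannot phosphorylate Bcl-xL at that serine responds in the same way.

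As background, connexins assemble into gap junction channels that pass the electrical impulse from cell to cell. Gja1 encodes the main connexin of the working ventricle. Gja5 encodes a connexin of the atria, the conduction system and arterial endothelium, and Gjc1 encodes a connexin of the conduction system. N-cadherin, the product of Cdh2, links the actin of neighbouring cells at adherens junctions, with alpha-T-catenin (Ctnna3) on its inner side. In desmosomes the cadherins desmoglein 2 (Dsg2) and desmocollin 2 (Dsc2) span the membrane, plakoglobin (Jup) and plakophilin 2 (Pkp2) bind their tails, and desmoplakin (Dsp) ties them to desmin filaments. Inherited faults in desmosome genes cause arrhythmogenic cardiomyopathy.

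Gja1 and Gja5, the connexin genes among the 10 that were called between the TAC groups, had a promoter entry in RefSeq (GRCm38.p6). The 250 bases before the transcription starts of these entries are shown. Cdh2 and Pkp2, also called in that comparison, had no such entry. The Gja1 window is chr10:56377050-56377299 and the Gja5 window is chr3:97032152-97032401, both on the plus strand and read 5′ to 3′. The Gja5 window lies inside the annotated gene (chr3:96904693-97077416), so it does not precede the first annotated start of Gja5. Both strands were searched, and capitals mark every match to the 7 motifs named next. The motifs were the GC box bound by Sp1 and related factors (GGGCGG), the AP-1 motif of Fos and Jun dimers (TGANTCA) and the GATA motif of Gata4 and its relatives (AGATAA). For other heart regulators they were the T-box partial site (AGGTGT), the NKX2-5 site of the homeobox factor Nkx2-5 (CAAGTG), and the M-CAT site of the TEAD factors (CATTCC). The general TATA box was searched as TATAAA.
Gja1: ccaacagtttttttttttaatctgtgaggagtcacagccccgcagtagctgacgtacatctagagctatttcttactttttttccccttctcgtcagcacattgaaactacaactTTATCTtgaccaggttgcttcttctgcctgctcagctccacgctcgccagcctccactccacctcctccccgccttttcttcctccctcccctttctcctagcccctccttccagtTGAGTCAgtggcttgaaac
Gja5: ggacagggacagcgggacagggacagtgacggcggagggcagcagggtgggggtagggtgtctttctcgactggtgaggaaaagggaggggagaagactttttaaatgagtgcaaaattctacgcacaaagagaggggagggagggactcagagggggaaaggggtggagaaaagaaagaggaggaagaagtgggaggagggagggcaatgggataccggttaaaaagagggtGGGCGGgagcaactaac
The Gja1 window held an AP-1 match that began 19 bases before the start and a GATA match that began 135 bases before it, and these matches did not overlap. An AP-1 match was present in 6.75% of 32851 promoter windows of this length and a GATA match in 9.99%. In the Gja5 window the only match among these 7 motifs was a GC box 17 bases before the start, which 32.7% of windows held. A pair of shorter or looser motifs was searched as well and is not in capitals. The CRE core (TGACG) matched at 2 places in the Gja1 window and 1 in the Gja5 window, and 17.8% of windows held it. The E-box (CANNTG) matched at 1 place in the Gja1 window, overlapping the AP-1 match, and 66.2% of windows held it. A match is a description of the letters. Promoter entries were found for 5 of the 10 genes.

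The deposited values are RPKM (reads per unit of exon length and of library size), which allow levels of different genes to be set side by side. Between 23650610 and 32455720 reads fell on genes per heart, a depth worked back from low values, which step by single reads. At this depth the junction genes had between 146 reads (Gja5 in its lowest heart) and 62067 reads (Dsp in its highest). In order of median RPKM over the 12 hearts, Dsp stood first at 139 (range 97.8 to 198) and Jup next at 137 (76.6 to 203). Pkp2 followed at 56.8 (45.8 to 100.4), then Gja1 at 42.1 (15.2 to 98.1) and Cdh2 at 38.3 (32.0 to 58.6). Dsg2 lay lower at 12.7 (8.04 to 16.7), above Dsc2 at 5.09 (3.17 to 9.96), Ctnna3 at 4.81 (2.32 to 7.09) and Gjc1 at 3.93 (2.88 to 5.76). Gja5 was the lowest at 1.43 (0.830 to 2.10). Neighbours in this order overlapped in their ranges except Cdh2 with Dsg2 and Gjc1 with Gja5, and Dsg2 overlapped Dsc2 over a short range. The labelled tissue was checked with 12 cardiomyocyte markers such as Myh6 and Tnnt2, all present, whose summed level was 16412 to 27607 RPKM. Of 8 atrial markers Nr2f1, Nr2f2, Dkk3 and Stard10 were listed, and Myl7, Myl4, Sln and Bmp10 were not among the rows of the table.

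**Figure D1:**
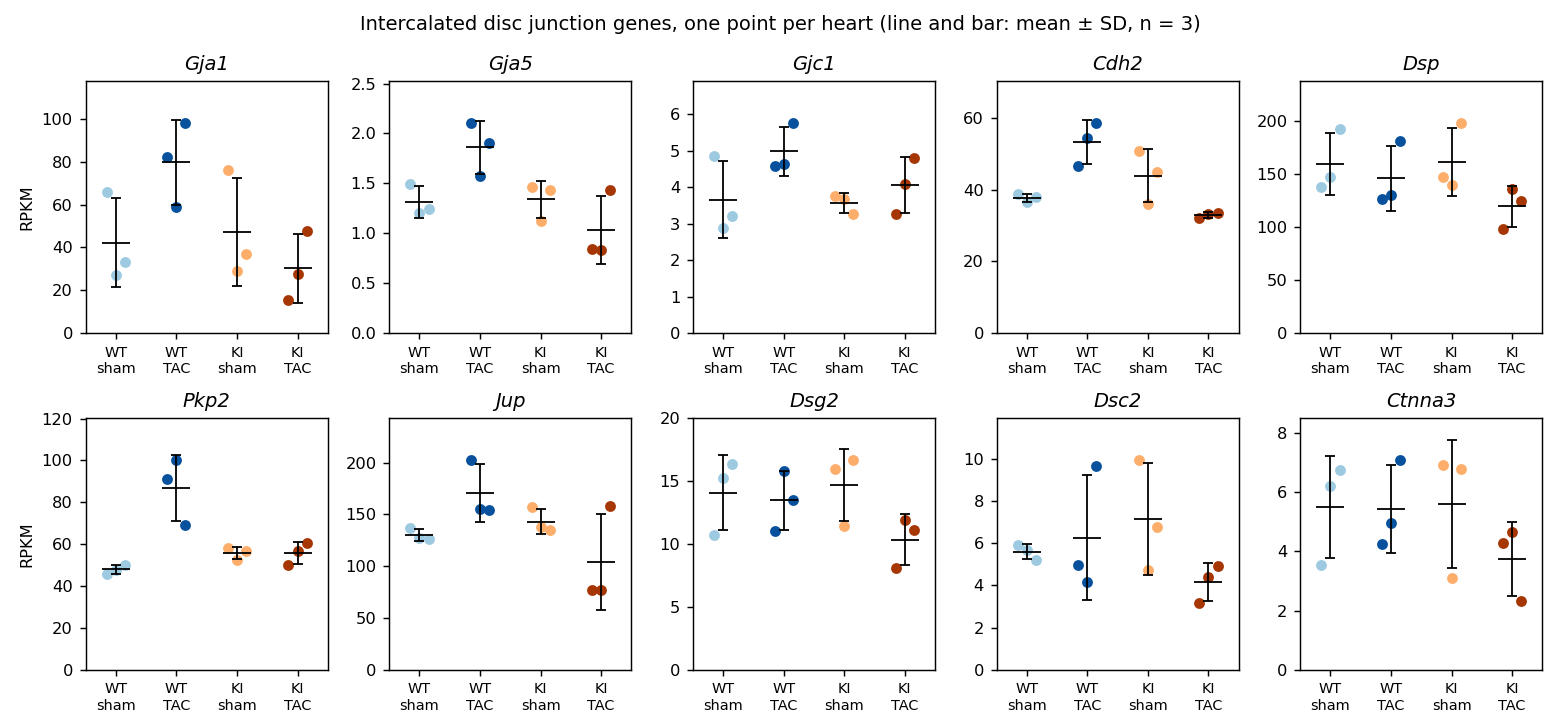
RPKM of each of the 10 junction genes (y axis, from 0) in each heart of the 4 groups (x axis), with the group mean and SD (n = 3). Pkp2 in the 3 WT TAC hearts lay between 69.3 and 100.4, above all other hearts, and Cdh2 in the 3 KI TAC hearts lay between 32.0 and 33.4, below all other hearts.

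Differences were tested with limma on log2(RPKM + 1) over all 11240 genes with 3 hearts a group, and a gene was called at a Benjamini-Hochberg adjusted p under 0.05. Fold changes are on the log2(RPKM + 1) scale, which understates changes of low genes such as Gja5. Nothing in the labels gives a batch, and each heart is a separate mouse. With 3 hearts against 3 an exact permutation test cannot go below p = 0.1. In RNA from whole hearts, fewer cells of a type and less RNA per cell cannot be told apart.

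In WT hearts 1 of the 10 junction genes, Pkp2, was called after TAC, and it was higher. Over all genes, 6.96% were called higher and 4.60% lower in this comparison. The higher calls were 60.2% of all calls, 51.1% with median-ratio scaling, 48.1% with quantile normalization and 93.5% with cardiomyocyte-gene scaling. The median log2 difference of the 10 genes was 0.34, beside 0.04 for all genes tested, and 7 of the 10 differences were above 0. Pkp2 was at 45.8, 47.8 and 50.2 RPKM in the 3 WT sham hearts and at 91.0, 100.4 and 69.3 RPKM in the 3 WT TAC hearts. The groups lay apart, with WT TAC mouse 10 nearest to sham. The log2 fold change was 0.83 ± 0.18 (SE, n = 3 a group, limma adjusted p = 0.00985), or 1.78-fold. Without WT TAC mouse 7 the log2 fold change was 0.79 with a limma adjusted p of 0.0508, in a range of 0.00267 to 0.0508 over 13 alternatives.

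A further 5 junction genes had WT differences that did not pass the test across all genes. Gja1 was at 65.9, 27.3 and 33.2 RPKM in WT sham and, after TAC, at 82.2, 58.9 and 98.1 RPKM, a log2 difference of 0.98 ± 0.43 (SE, limma adjusted p = 0.155). WT sham mouse 1 stood far above the other sham hearts and overlapped the TAC range. For Cdh2 the WT sham hearts held 38.8, 36.7 and 37.9 RPKM, and the WT TAC hearts held 46.7, 54.6 and 58.6 RPKM, with a log2 difference of 0.48 ± 0.17 (SE, limma adjusted p = 0.0871). Its groups did not overlap, and neither did those of Gja5 (1.20 to 1.49 and 1.58 to 2.10 RPKM) or Jup (126 to 137 and 154 to 203 RPKM). Together with Pkp2 this made 4 of 10 genes with every WT TAC heart above every WT sham heart, where 20.0% of all genes showed this, and 0 of 10 with the opposite order, which 15.0% of all genes showed. Gjc1 had a log2 difference of 0.38 (adjusted p = 0.184 by limma), with overlapping groups.

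Dsp, Dsg2, Dsc2 and Ctnna3, the desmosome linker, both desmosomal cadherins and alpha-T-catenin, had WT log2 differences between −0.13 and 0.07, and their groups overlapped. Their 95% confidence intervals were wide: −0.62 to 0.35 for Dsp, −0.52 to 0.41 for Dsg2, −0.52 to 0.65 for Dsc2 and −0.64 to 0.64 for Ctnna3. Changes within these intervals were not excluded with 3 hearts a group.

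In KI hearts no junction gene was called after TAC by limma, nor by limma-voom on the recovered reads, while 8.57% of all genes were called higher and 14.7% lower. The higher calls were 36.8% of all calls, and 48.3 to 51.5% with the other 3 scalings. At an unadjusted p under 0.05 there were 3 junction genes, Cdh2, Dsg2 and Dsc2, all lower, against 36.8% of all genes. The median log2 difference of the 10 genes was −0.44, beside −0.10 for all genes, and 9 of the 10 lay below 0, Pkp2 only just and above 0 with median-ratio or cardiomyocyte-gene scaling. Cdh2 was at 50.8, 36.1 and 44.9 RPKM in KI sham and at 32.0, 33.3 and 33.4 RPKM in KI TAC hearts, a log2 difference of −0.39 ± 0.17 (SE, limma adjusted p = 0.114). Its 3 KI TAC values lay close together and all below the sham values. Those of Dsp also lay below the sham values but were more spread (97.8 to 136 RPKM after TAC and 140 to 198 RPKM after sham). Cdh2 and Dsp were the 2 of 10 genes with the KI TAC hearts below all KI sham hearts, beside 24.7% of all genes. Wholly above lay 0 of 10, beside 13.6%.

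Pkp2, which rose in WT hearts, was at 58.0, 52.4 and 56.6 RPKM in KI sham and at 49.9, 56.9 and 60.4 RPKM in KI TAC hearts. The means were 55.7 ± 2.93 and 55.7 ± 5.38 RPKM (SD, n = 3 each), and the 95% confidence interval of the log2 difference was −0.38 to 0.38. Gja1 was at 76.1, 29.2 and 36.7 RPKM in KI sham and at 15.2, 27.7 and 47.5 RPKM in KI TAC hearts, overlapping groups with a log2 difference of −0.65 ± 0.43 (SE, limma adjusted p = 0.289). KI sham mouse 1, like WT sham mouse 1, held far more Gja1 than the other sham hearts of its genotype. Both also had the highest mean log2 level of fibroblast markers in their group, and mitochondrial genes took 6.36% of the reads in WT sham mouse 1 and 9.76 to 12.5% in the other 11 hearts. Jup was at 157, 138 and 134 RPKM in KI sham hearts, and at 77.4, 76.6 and 158 RPKM in KI TAC hearts. KI TAC mouse 7 stood with the sham hearts and the other KI TAC hearts far below them. The log2 difference of Jup was −0.54 ± 0.25 (SE, limma adjusted p = 0.139), and without KI TAC mouse 7 it was −0.88 with a limma adjusted p of 0.00718 (0.00718 to 0.386 over 13 alternatives).

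**Figure D2:**
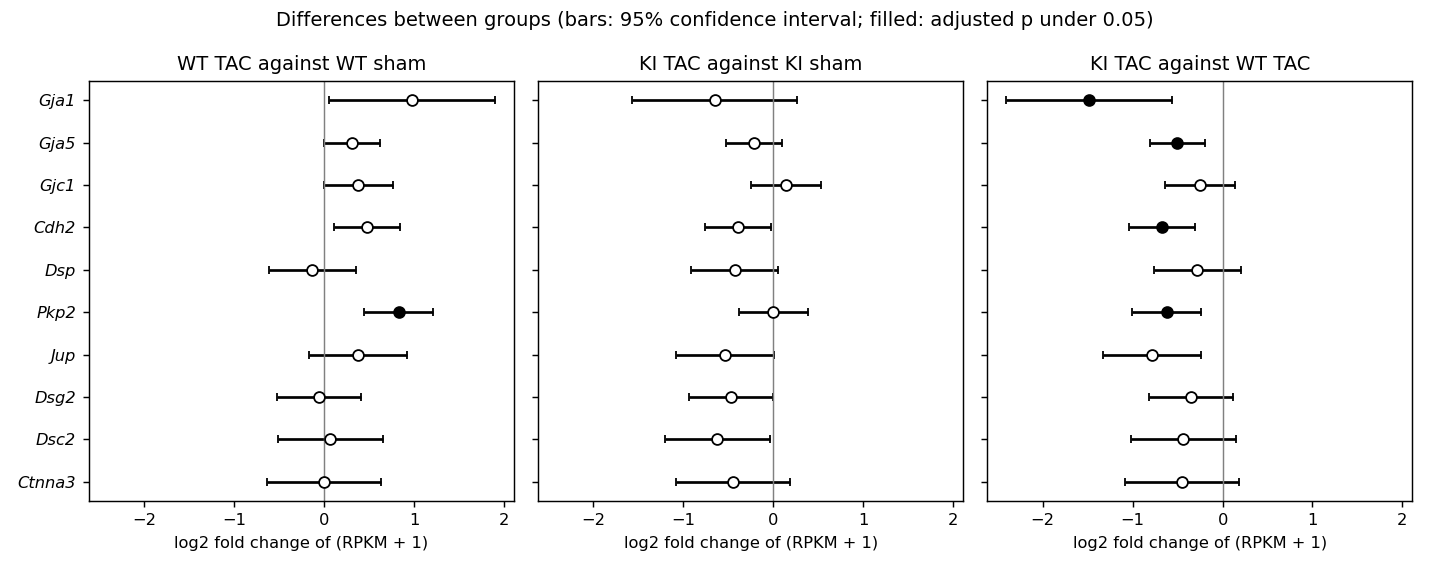
Log2 fold change of (RPKM + 1) for each junction gene (rows) in 3 comparisons, with 95% confidence intervals from limma; filled points have an adjusted p under 0.05. Pkp2 alone is filled in the WT comparison, none in the KI comparison, and Gja1, Gja5, Cdh2 and Pkp2 are filled below 0 for KI TAC against WT TAC.

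Between the TAC groups, 4 of the 10 junction genes were lower in KI than in WT hearts and none was called higher, beside 8.13% of all genes called lower and 2.92% called higher. The called genes were Gja1, Gja5, Cdh2 and Pkp2. All 10 differences lay below 0, with a median log2 difference of −0.48 beside −0.12 for all genes tested. The median of all genes was thus itself below 0. Here and in the other comparisons the 10 genes share the same hearts, so their signs are not 10 separate results. Gja1 had the largest difference: with 82.2, 58.9 and 98.1 RPKM in WT TAC and 15.2, 27.7 and 47.5 RPKM in KI TAC hearts, the KI level was 0.358 times the WT level (log2 −1.48 ± 0.43, SE, limma adjusted p = 0.0418). The groups did not overlap, and the KI TAC hearts were themselves widely spread, with mouse 5 lowest.

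After TAC, Cdh2 in KI hearts was 0.627 times the WT level (log2 −0.67 ± 0.17, SE, limma adjusted p = 0.0270). Pkp2 was 0.651 times as high (log2 −0.62 ± 0.18, SE, limma adjusted p = 0.0417). Gja5 was at 2.10, 1.58 and 1.91 RPKM in WT TAC hearts and at 0.839, 0.830 and 1.43 RPKM in KI TAC hearts (log2 −0.50 ± 0.14, SE, limma adjusted p = 0.0410). These 4 genes were also the 4 of 10 whose KI TAC hearts all lay below all WT TAC hearts, which 19.4% of all genes did. Jup missed the threshold (log2 −0.78 ± 0.25, SE, limma adjusted p = 0.0602), and its groups overlapped through KI TAC mouse 7. Without that mouse Jup had a log2 difference of −1.12 and a limma adjusted p of 0.00473, in a range of 0.00473 to 0.225 over 13 alternatives. Dsp, Dsg2, Dsc2, Ctnna3 and Gjc1 had log2 differences between −0.45 and −0.25, overlapping groups and limma adjusted p values of 0.287 to 0.422.

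The calls between the TAC groups rested on single hearts, whereas the signs did not: all 10 differences stayed below 0 in each of 13 alternatives. No junction gene was called when WT TAC mouse 7, KI TAC mouse 5 or KI TAC mouse 6 was left out, or when only the 6 TAC hearts were fitted. Without WT TAC mouse 10 only Pkp2 was called. With median-ratio scaling between libraries 2 were called (Gja1 and Gja5), with quantile normalization 3 (Cdh2, Pkp2 and Jup), and with each heart scaled to its cardiomyocyte markers 8. Of all genes called between the TAC groups, 26.4% were higher in KI with the values as deposited, 51.6% with median-ratio scaling, 46.0% with quantile normalization and 4.55% with cardiomyocyte-gene scaling. The median difference of all genes moved with this choice, from −0.12 as deposited to −0.00 with median-ratio scaling, and that of the junction genes from −0.48 to −0.37. With cardiomyocyte-gene scaling these medians were −0.39 and −0.73.

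Markers of heart muscle and other cells were set beside these groups, and the lists differed in whether they followed them. The geometric mean of the 12 cardiomyocyte markers, relative to all hearts, was 1.05 to 1.19 in WT sham, 0.729 to 0.917 in WT TAC, 0.994 to 1.20 in KI sham and 0.885 to 1.23 in KI TAC hearts. On average it was lowest in WT TAC hearts, the group with the most Gja1, Gja5, Cdh2, Pkp2 and Jup. The summed RPKM of these 12 markers overlapped among all groups: 20680 to 27317 in WT sham and 16412 to 27131 in WT TAC. It was 22408 to 26033 in KI sham and 20111 to 27607 in KI TAC hearts. In WT hearts 2 of the 12 had log2 differences above 0 after TAC, and 2 were called lower. Mean WT levels of Actc1 were 9724 RPKM after sham and 13761 after TAC, and those of Ttn 67.4 and 83.8. The mean log2(RPKM + 1) of 8 smooth muscle and pericyte markers was 3.61 to 3.71 in WT sham, 3.89 to 4.35 in WT TAC, 3.45 to 3.68 in KI sham and 3.46 to 3.88 in KI TAC hearts, and the TAC groups touched without overlapping (exact permutation p = 0.1, two-sided, the smallest possible). Their summed RPKM overlapped between the TAC groups, at 230 to 309 in WT and 157 to 237 in KI. Of these 8 markers, Cnn1 and Cspg4 were called higher after TAC in WT hearts, and Cnn1, Cspg4 and Notch3 were called lower between the TAC groups (log2 −0.98, −0.80 and −0.95, limma adjusted p = 0.0261, 0.0479 and 0.0130). Fibroblasts also express Gja1, and the heart with the most Gja1 was the highest of its group in the mean log2 level of 8 fibroblast markers in 4 of 4 groups, and in their summed RPKM in 3 of 4, a pattern seen after the values were known. The mean log2(RPKM + 1) of these markers was 5.13 ± 0.62 in WT TAC and 4.57 ± 0.29 in KI TAC hearts (SD, n = 3 each), overlapping groups with an exact permutation p of 0.3 (two-sided). The collagen gene Col1a1 averaged 65.4 RPKM in WT sham, 239 in WT TAC, 89.8 in KI sham and 58.5 in KI TAC hearts, and Col3a1 averaged 14.9, 70.9, 20.6 and 11.8 RPKM in the same order. Neither collagen passed the test in WT hearts (limma adjusted p = 0.0818 and 0.111) or between the TAC groups (limma adjusted p = 0.0646 and 0.0807). Gsn, another of these markers, was lower after TAC in WT hearts (log2 −0.99, limma adjusted p = 0.0227). The mean log2 level of 8 leukocyte markers averaged 2.01 in WT sham and 1.99 in KI sham hearts, and was 2.87 to 3.09 in WT TAC and 2.71 to 3.11 in KI TAC hearts. It was higher in every TAC heart than in every sham heart, and the TAC groups overlapped. For 10 endothelial markers the mean log2 level averaged 4.46 in WT sham, 4.55 in WT TAC, 4.52 in KI sham and 4.67 in KI TAC hearts. All groups overlapped in this level.

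Markers of the tissues in which Gja5 is best known were mixed between the TAC groups. The mean log2 level of the 4 listed atrial markers was 1.99 to 2.10 in WT TAC and 1.56 to 1.88 in KI TAC hearts, without overlap (exact permutation p = 0.1, two-sided, the smallest possible), beside 2.04 to 2.15 in WT sham and 1.89 to 2.31 in KI sham hearts. Of these 4, Nr2f1 was called lower between the TAC groups (log2 −0.55, limma adjusted p = 0.0253), while Stard10, the most abundant, averaged 13.4 RPKM in WT TAC and 14.4 in KI TAC hearts and was not called. For the 5 listed conduction system markers the level was 2.71 to 3.47 in WT TAC and 2.46 to 2.82 in KI TAC hearts, overlapping groups (exact permutation p = 0.3, two-sided), and 2.84 to 3.11 and 2.80 to 3.11 in WT sham and KI sham hearts. Of the 4 conduction markers tested, Hcn4, a pacemaker channel, was called lower (15.3 RPKM in WT TAC and 4.41 in KI TAC hearts on average, log2 −1.47, limma adjusted p = 0.0303), and so was Irx3. The other 2 were not called, at 3.88 and 5.03 RPKM for Tbx3 and 1.26 and 1.66 RPKM for Cntn2 in WT TAC and KI TAC hearts. The mean log2 level of 6 arterial endothelial markers was 3.14 to 3.47 in WT TAC and 3.05 to 3.22 in KI TAC hearts, overlapping groups (exact permutation p = 0.2, two-sided). Of the 5 tested, Efnb2 was called lower (log2 −0.75, limma adjusted p = 0.0224), and Sox17 and Gja4 had log2 differences of 0.66 and 0.06 that were not called. The part of all these cells in the differences of the junction genes was not tested.

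No difference between the genotypes was detected in sham hearts, within wide limits. No junction gene was called between KI sham and WT sham hearts by limma or by limma-voom, 0 of 10 had an unadjusted p under 0.05, and of all genes 0.0178% were called and 0.329% had an unadjusted p under 0.05. The largest log2 difference was that of Dsc2, 0.26 (95% confidence interval −0.33 to 0.84), and that of Gja1 was 0.15 (−0.77 to 1.07). Pkp2 was the 1 of 10 genes with all KI sham hearts (52.4 to 58.0 RPKM) above all WT sham hearts (45.8 to 50.2 RPKM), where 2.08% of all genes had this order. No junction gene had the opposite order, which 1.19% of genes had. The Pkp2 log2 difference was 0.21 ± 0.18 (SE, limma adjusted p = 1.00).

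The difference between the genotypes in the response to TAC was tested itself as an interaction. None of the 10 junction genes was called by limma or by limma-voom, and 0% of all genes were called by limma. At an unadjusted p under 0.05 there were 5 of the 10 (Gja1, Gja5, Cdh2, Pkp2 and Jup), beside 14.8% of all genes. All 10 interaction values lay below 0, as fitted and in 18 alternatives, with a median of −0.61 beside −0.13 for all genes. Gja1 had the largest, −1.63 ± 0.61 (SE, limma adjusted p = 0.248), Jup followed at −0.91 ± 0.36 (adjusted p = 0.262 by limma), Cdh2 at −0.87 ± 0.24 (adjusted p = 0.157 by limma) and Pkp2 at −0.83 ± 0.25 (adjusted p = 0.180 by limma). A difference in response between genotypes was therefore not shown for any junction gene, although Pkp2 was called in WT hearts alone. Without KI TAC mouse 7 Jup was called (−1.26, limma adjusted p = 0.0427), in a range of 0.0427 to 0.530 over 18 alternatives. Averaged over both genotypes, Pkp2 was higher after TAC (log2 0.41 ± 0.13, SE, limma adjusted p = 0.0233), where 14.1% of all genes were called higher. That call was lost without WT sham mouse 2, WT TAC mouse 7, WT TAC mouse 9 or KI sham mouse 3, with limma adjusted p values up to 0.0625.

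**Figure D3:**
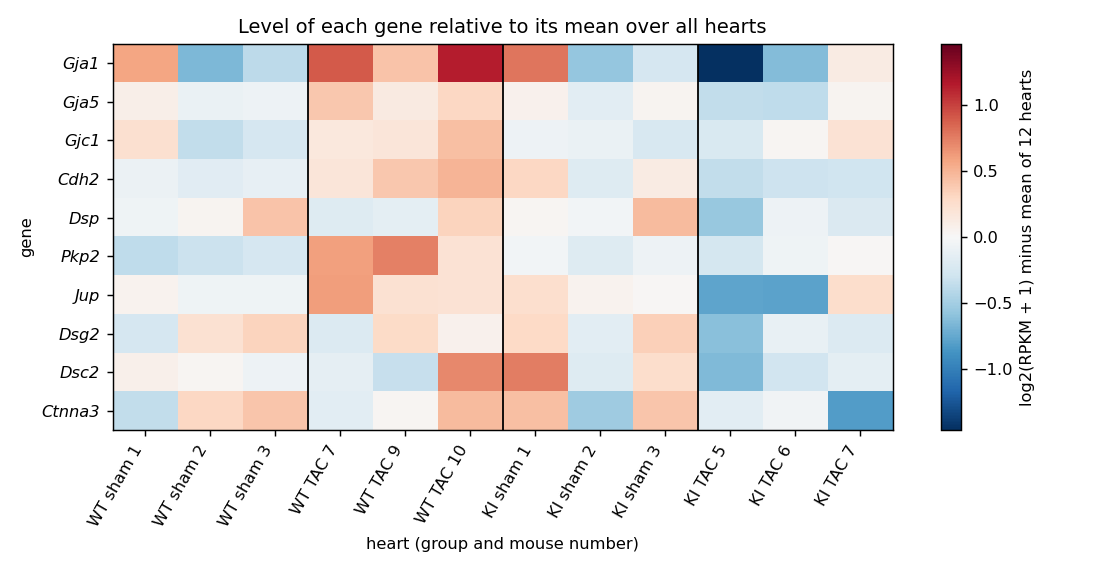
Heat map of log2(RPKM + 1) of the 10 junction genes (rows) in the 12 hearts (columns, by group and mouse number), each gene relative to its mean over all hearts; red is above and blue below. KI TAC mouse 5 lies below the mean in 10 of 10 genes and WT TAC mouse 10 above it in 10 of 10.

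Hearts of a group differed in how the junction genes stood together. In KI TAC mice 5, 6 and 7, 10, 9 and 5 of the 10 genes lay below their mean over the 12 hearts, and in WT TAC mice 7, 9 and 10 there were 4, 2 and 0. KI sham mouse 2 had 9 genes below the mean, while KI sham mice 1 and 3 had 2 and 3. The 3 WT sham hearts had 5, 6 and 7.

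Ratios within a heart do not depend on the scaling between libraries. Gja1 made up 78.7 to 93.6% of the summed RPKM of the 3 connexins in every heart. Its share was 92.5, 90.5 and 92.8% in the WT TAC hearts and 78.7, 84.9 and 88.4% in the KI TAC hearts, without overlap (exact permutation p = 0.1, two-sided, the smallest possible). The Gjc1 share was 5.15 to 7.11% in WT TAC and 8.92 to 17.0% in KI TAC hearts (exact permutation p = 0.1, two-sided). Sham hearts lay between and across both, with Gja1 shares of 87.0 to 91.2% in WT and 85.9 to 93.6% in KI. None of 5 comparisons of the Gja1 share went below p = 0.1, and TAC against sham over both genotypes gave an exact p of 0.660 when hearts were permuted within genotype.

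In the desmosome, the ratio of Pkp2 to Dsp RPKM was looked at after the values were seen and is given without a test. It was 0.332, 0.325 and 0.260 in WT sham hearts and 0.720, 0.773 and 0.383 in WT TAC hearts. In KI hearts it was 0.395, 0.375 and 0.286 after sham and 0.510, 0.419 and 0.487 after TAC. The TAC hearts lay above the sham hearts in both genotypes, and the TAC groups overlapped each other.

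The genes whose levels followed 9 of the junction genes most closely over the 12 hearts were found by Pearson's r of log2(RPKM + 1), as a description over 12 hearts of 4 groups, in which each library gives both values. For Gja1 they were Rgl1 (0.96), Tmem263 (0.95) and Cyb5b (0.94), and for Gja5 Ptk7 (0.97), Dnm2 (0.96) and Ahnak2 (0.96). Jup was followed by Slc35c1 (0.97), Efs (0.96) and again Dnm2 (0.95), and Pkp2 by Camkk2 (0.95), Fgf18 (0.94) and Ccn4 (0.92). Cdh2 had Cybb (0.93), Vav3 (0.91) and Lrrk2 (0.91) nearest, and Dsp had Cep120 (0.98), Depdc5 (0.92) and Lmo7 (0.91), the last a protein of the disc itself. For Gjc1 the nearest was Scamp2 (0.95), for Ctnna3 Mpdz (0.93) and for Dsg2 Ablim1 (0.91).

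Other genes of the disc were counted from lists of proteins known at or near it, with the 10 junction genes left out. Of 25 scaffold, actin and signaling genes, 9 were higher and 0 lower after TAC in WT hearts, and 8 were higher and 1 lower in KI hearts, with median log2 differences of 0.35 and 0.16 over the list. Over all genes the shares called higher were 6.96% in WT and 8.57% in KI hearts, and the shares called lower were 4.60% and 14.7%. The Xin actin-binding genes Xirp2 (log2 3.21 in WT and 2.66 in KI) and Xirp1 (1.50 and 3.17), the actin cross-linker Flnc (2.34 and 3.52) and the muscle LIM protein Csrp3 (1.17 and 1.78) were called in both genotypes. So were the actin regulator Enah (1.77 and 1.56) and Nrap (0.96 and 2.0), which ties actin to the disc. Sorbs2 was called higher in WT hearts (1.51), and Tmem65, a disc membrane protein named after its value was seen, lower in KI hearts (log2 −0.81). In the other genotype, Sorbs2 was 0.58 in KI (limma adjusted p = 0.0751) and Tmem65 −0.61 in WT hearts (limma adjusted p = 0.0758). Neither interaction was called (limma adjusted p = 0.219 and 0.757). With median-ratio scaling Sorbs2 was also called higher in KI hearts. Between the TAC groups Nrap was higher in KI hearts (0.98, limma adjusted p = 0.0232) and Sorbs2 lower (−0.79, limma adjusted p = 0.0372). Sorbs2 was not called lower with median-ratio scaling or quantile normalization, nor Nrap higher with quantile normalization. With median-ratio scaling the rise of Xirp1 in WT hearts and the fall of Tmem65 in KI hearts were not called.

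**Figure D4:**
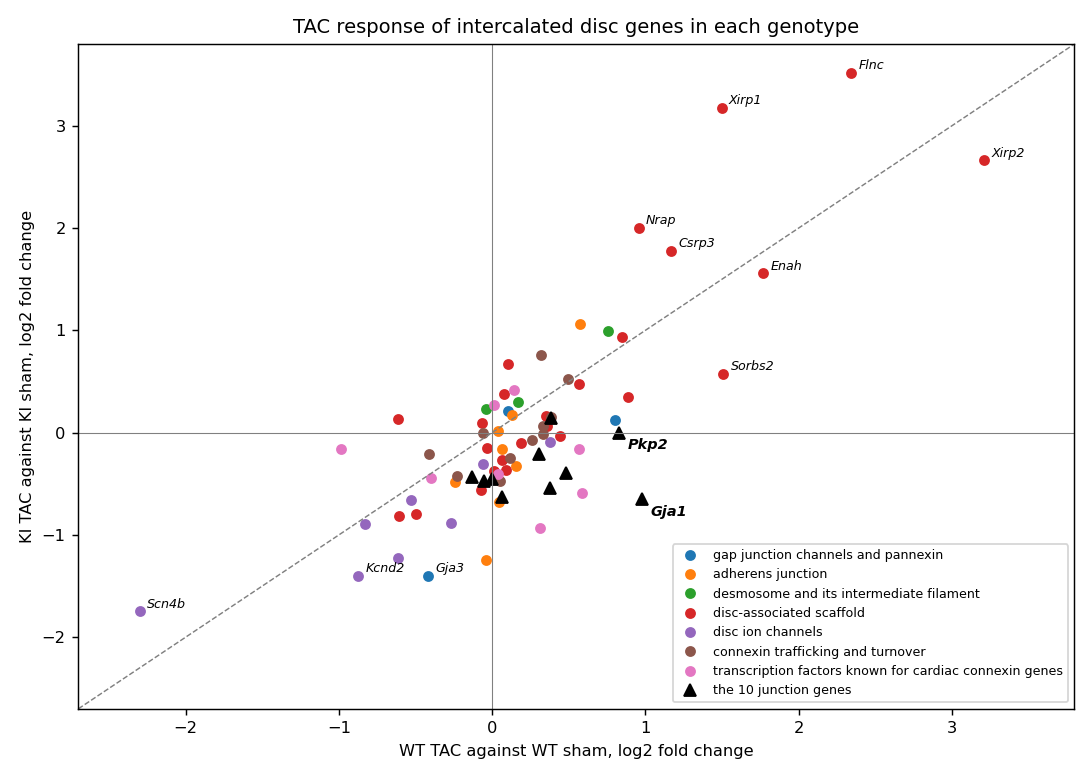
Log2 fold change after TAC in KI hearts (y axis) against that in WT hearts (x axis) for listed intercalated disc genes, coloured by list, with the 10 junction genes as black triangles and a dashed line where both are equal. Flnc, Xirp1 and Xirp2 rose in both genotypes, and Gja1 (0.98 in WT, −0.65 in KI) lies farthest of the triangles from the line.

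Of 8 ion channel genes of the disc that were tested, 3 were lower and 0 higher after TAC in WT hearts and 6 lower and 0 higher in KI hearts, where 4.60% and 14.7% of all genes were called lower. Scn4b, a sodium channel beta subunit, fell by the most (log2 −2.30 in WT and −1.75 in KI), and Kcnd2, the transient outward potassium channel, fell in both (−0.87 and −1.40), as did the KATP subunit Abcc9 (−0.83 and −0.89). The inward rectifiers Kcnj12 (−1.23) and Kcnj2 (−0.88) were called in KI hearts only, and the difference from WT was not called by limma for any of the 8. Abcc9 was not called in WT hearts with median-ratio scaling or quantile normalization, nor in KI hearts with median-ratio scaling. Among 3 tested genes for other connexins and for pannexin, Panx1, whose pannexin channels span a single membrane, was called higher in WT TAC hearts (0.80). Its KI difference was 0.12. Gja3 was called lower in KI TAC hearts (−1.40), with a WT difference of −0.42. Neither interaction was called (limma adjusted p = 0.247 for Panx1 and 0.160 for Gja3). Gja3, another connexin gene, was also lower in the KI TAC group than in the WT TAC group (−0.91, limma adjusted p = 0.0146).

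Of 8 tested adherens junction genes, 0 were called in WT hearts. In KI hearts vinculin (Vcl, 1.06) was called higher, and Nectin2 (−1.25) and the catenin Arvcf (−0.67) lower, Arvcf not with median-ratio scaling. Over all genes, 6.96% were called higher and 4.60% lower in WT hearts, and 8.57% and 14.7% in KI hearts. The WT differences were 0.57 for Vcl, −0.04 for Nectin2 and 0.04 for Arvcf. Their interactions were not called (limma adjusted p = 0.517, 0.184 and 0.288). Nectin2, a nectin adhesion protein, was likewise below the WT TAC level in KI TAC hearts (−0.99, limma adjusted p = 0.0310). Of 3 further desmosome-linked genes Des, the desmin filament to which desmoplakin binds, was higher in both genotypes (0.75 and 0.99), in WT hearts not with median-ratio scaling. Among 11 genes of connexin trafficking and turnover, the microtubule end protein Mapre1 (0.52) and the kinase Csnk1d (0.76) rose after TAC in KI hearts, and 0 were called in WT hearts. The WT differences were 0.49 for Mapre1 (limma adjusted p = 0.0531; called with median-ratio scaling and quantile normalization) and 0.32 for Csnk1d (limma adjusted p = 0.228), and neither interaction was called (0.03 and 0.44, limma adjusted p = 0.955 and 0.394).

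Of 8 transcription factors known for cardiac connexin genes, comparing KI TAC with WT TAC hearts gave 3 lower and 1 higher, beside 8.13% and 2.92% of all genes. Gata4 (−1.15, limma adjusted p = 0.0276), Nkx2-5 (−1.12, limma adjusted p = 0.0268) and Irx3 (−0.80, limma adjusted p = 0.0478) were lower, and Hopx was higher (1.03, limma adjusted p = 0.0224). Irx3 was not called with median-ratio scaling. Gata4 and Nkx2-5 are core factors of heart muscle, and Irx3 acts in the ventricular conduction system, where it controls connexin expression. Against its own sham group, Hopx was lower in WT TAC hearts (−0.98) and Nkx2-5 in KI TAC hearts (−0.93), the latter not with median-ratio scaling. In the other genotype the difference was −0.16 for Hopx and 0.31 for Nkx2-5. Neither interaction was called (limma adjusted p = 0.296 and 0.207).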

How the data were processed

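RNA from 12 mouse hearts was analysed as 1 table of RPKM values, in which samples were grouped by genotype and surgery labels. The authors trimmed reads with Trimmomatic 0.39, mapped them to GRCm38 with HISAT2 2.2.1, counted them with HTSeq 0.6.1 and deposited RPKM values; the step from counts to RPKM and the filter on genes are not given in the sources used here. Of 13552 gene IDs, 13546 were found in GENCODE M21, whose exon lengths gave back whole reads for 97.5 to 98.5% of low values (within 0.1 read).

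The 11240 genes that reached 1 RPKM in 3 or more hearts were fitted on log2(RPKM + 1) with limma 3.58.1 (R 4.3.3, eBayes with trend) as 4 group means over 12 hearts. The study's methods name edgeR on counts, which RPKM do not allow as a main test. P-values were Benjamini-Hochberg adjusted over all genes tested. Ratios within hearts used exact permutation tests (scipy 1.17.1). The fit was tested on simulated data. Promoters came from RefSeq (GRCm38.p6), and tables were handled in pandas 2.3.3 and drawn with matplotlib 3.10.9.

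All 10 members are named. From each list of other disc genes at most 5 called genes per comparison were to be named, by size, and for each member the 3 most similar genes, leaving out predicted genes; those of Dsc2 are not reported here. The members and lists were chosen with earlier results of these data known. Alternatives were 3 other scalings, a pseudocount of 0.1 RPKM, no filter, limma-voom on recovered reads, a fit of the 2 groups compared, an adjusted p of 0.10, a replicate block and leaving out each heart.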

Additional observations from a re-analysis of the deposited data

Results flagged for a closer look

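The genotype by surgery interaction of Cdh2 was −0.872 on the log2 scale. In WT hearts each TAC value (46.7 to 58.6 RPKM) lay above each sham value (36.7 to 38.8 RPKM), and in KI hearts each TAC value (32.0 to 33.4 RPKM) lay below each sham value (36.1 to 50.8 RPKM). The interaction itself did not pass the test across all genes (limma adjusted p = 0.157, 0.0932 to 0.358 over 18 alternatives).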

How the results depend on the processing

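The call of Pkp2 in WT hearts held in 12 of 13 alternatives. Cardiomyocyte-gene scaling moved the number of junction genes higher in WT TAC hearts from 1 to 5 (Gja1, Gja5, Gjc1, Cdh2 and Pkp2), and an adjusted p of 0.10 to 2 (Cdh2 and Pkp2). Between the TAC groups the 4 lower genes became 2 with median-ratio scaling, 8 with cardiomyocyte-gene scaling and 0 when 2 groups were fitted. Averaged over genotypes, 2 genes in place of 1 (Gjc1 and Pkp2) were higher with median-ratio scaling, quantile normalization or cardiomyocyte-gene scaling. Leaving out a heart gave 0 to 1 genes higher in WT TAC hearts, 0 to 1 lower in KI TAC hearts, 0 to 5 lower in KI TAC against WT TAC hearts, 0 to 2 higher after TAC averaged over genotypes, and 0 to 1 lower in the interaction. The cause of these changes was not tested.

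Fold changes were recomputed for the 10 junction genes in both TAC-against-sham comparisons, between the TAC groups and in the interaction, for Gjc1 and Pkp2 averaged over genotypes, and for Dsc2, Gja1 and Pkp2 between the sham groups. Of these values 582 kept their direction and their side of the threshold, 29 fell short of it, 16 came to pass it and 21 changed sign. None of those 21 had passed the test. Pkp2 in KI hearts was 0.13 with median-ratio scaling and 0.11 with cardiomyocyte-gene scaling, and −0.0606 to 0.0755 with a heart left out. With cardiomyocyte-gene scaling the WT differences of Dsp, Dsg2 and Ctnna3 were 0.30, 0.35 and 0.36. Ctnna3 was 0.0030 with a pseudocount of 0.1 and 0.0092 by limma-voom. With a heart left out, the WT differences spanned −0.30 to 0.0122 for Dsp, −0.23 to 0.0705 for Dsg2, −0.24 to 0.15 for Ctnna3 and −0.25 to 0.28 for Dsc2, and the sham difference of Gja1 spanned −0.25 to 0.51.

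Among the other disc genes in WT hearts, Des was lost with median-ratio scaling (0 for 1), 1 trafficking gene (Mapre1) was higher with median-ratio scaling or quantile normalization in place of 0, and 1 transcription factor (Irx3) with quantile normalization. Both scalings left 2 ion channels lower for 3. In KI hearts median-ratio scaling left 1 adherens junction gene lower for 2, 4 ion channels for 6 (5 with quantile normalization), 0 scaffold genes lower for 1 and 0 transcription factors lower for 1. It gave 1 transcription factor (Tbx3) higher for 0, as did quantile normalization. Between the TAC groups, median-ratio scaling gave 4 scaffold genes higher in KI for 1, and both scalings left 0 lower for 1 (Sorbs2). Quantile normalization called Sptan1 higher in place of Nrap, and median-ratio scaling left 2 transcription factors lower for 3 (without Irx3).

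The mouse numbers of sham hearts did not pair them: deviations of same-numbered hearts correlated at −0.22, −0.30 and 0.44, and 1 of 3 WT hearts matched its own number best. With the number as a replicate block, 0 junction genes were called between the sham groups, as without it, and of 10662 genes 0 in place of 5. No paired analysis was possible for the other comparisons because their groups share fewer than 2 numbers. Among the junction genes Gja5 rested on the fewest reads, 146 to 311 a heart.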
